A study of Mus musculus with 11 samples.

Results

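The carriers that move amino acids, hexoses and monocarboxylates across mouse cell membranes were followed in feeder cells, in induced pluripotent stem cells (iPSC) without feeder cells and in iPSC on feeder cells. They were taken as every probe annotated with a symbol of the Slc1a, Slc2a, Slc3a, Slc6a, Slc7a, Slc16a, Slc36a, Slc38a or Slc43a families followed by digits, which gave 82 genes with 151 probes among 17711 genes and 46627 probes on the array. Probes were kept where the array detected them on every array of at least 1 group, and 45 of the 82 carriers (65 probes) passed, against 10058 genes in all. The other 37 carriers were not measured above background by this rule, 29 of them on no array. The symbol rule leaves out Slc6a20a and Slc6a20b, neither of which was kept, and Slc7a6os, which encodes no carrier.

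Total RNA was hybridized to Illumina BeadChips as biotinylated cRNA. Feeder cells (MSTO, 2 arrays) are labelled as C57BL/6 embryonic fibroblasts that express LIF, the cytokine that keeps mouse pluripotent cells undifferentiated. Feeder-free iPSC (3 arrays, C57BL/6) grew with 1000 units/ml of added LIF, 15% serum, 0.1 mM non-essential amino acids and 0.1 mM 2-mercaptoethanol in high-glucose DMEM without sodium pyruvate. iPSC on feeder (3 arrays, C57BL/6) grew on mitomycin C-treated cells that the growth protocol calls SNL76/7, and were lifted mechanically from the layer. How MSTO and SNL76/7 relate, and which LIF, serum, glucose or amino acid amounts the on-feeder cultures received, is not given in the sources used here, so feeder cells, medium and harvest cannot be told apart. The iPSC line is not named either. A computed reference, 3 mixtures made in silico from 92% feeder-free and 8% feeder signal, carries the same arrays and is not independent of them. For the tests the mixtures were built anew at these shares from background-corrected signal, and were normalized together with the on-feeder arrays. The labels do not say that replicates were separate cultures, so each p-value measures the spread between these samples, which may be technical.

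Amino acid carriers fall into exchangers, sodium-coupled concentrators and facilitators, and several light chains reach the cell surface only when bound to the heavy chain encoded by Slc3a2. Mouse pluripotent cells are known for high glycolytic flux and for a demand for glutamine and threonine. Facilitative hexose carriers bring in glucose down its gradient, while monocarboxylate carriers move lactate and pyruvate together with protons.

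Levels are log2 signals after background correction and quantile normalization, and a level of 1 probe is never set against that of another. The detection floor lay above many feeder signals: of the 151 carrier probes 31 to 36 were detected on a feeder array and 62 to 69 on an iPSC array. The lowest detected signal was 5.38 and 5.56 log2 on the feeder arrays but 4.92 to 5.05 on the iPSC arrays. The same level could thus count as detected in iPSC only. Slc38a11 read 5.33 and 5.27 in feeder cells without detection, and 5.21, 5.20 and 5.16 feeder-free with detection. The arrays of a group resembled each other (lowest correlation 0.995 in feeder cells, 0.9939 feeder-free, 0.9919 on feeder), and the median SD of a carrier was 0.0857, 0.138 and 0.128 log2 units in that order. The fibroblast markers checked the labels: the summed signal of 7 measured markers of 8 ran from 35100 to 39600 in feeder cells, 904 to 930 in feeder-free iPSC and 3730 to 3800 on feeder, all 7 were detected on every on-feeder array, and 6 also on every feeder-free array. The summed signal of 7 pluripotency markers of 8 was 184 to 313, 16000 to 17000 and 13700 to 15500, with 4 of them detected on no feeder array. Over 14 feeder-specific probes the on-feeder arrays held 4.37%, 2.91% and 3.83% of the feeder signal, with a median of 3.69%. The 7 fibroblast markers instead had a median log2 difference of 0.01 from the mixtures with 8% feeder signal. Their differences ran from -1.866 to 1.185, with 1 passing as higher and 2 as lower. The estimated share thus depends on the probes used. In bulk RNA, fewer cells of a type and less RNA per cell cannot be told apart.

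Promoter sequences are shown first for 3 carriers on which the results turn: Slc38a7, the lysosomal glutamine exporter with the largest fall on feeder, Slc1a4, the neutral amino acid exchanger with the largest rise there, and Slc7a7, a light chain that was high in both iPSC cultures. Windows run from 250 bases before to 50 bases after a RefSeq start site (GRCm38.p6, minus strand for all 3), written 5′ to 3′. Capitals mark the E-box in Slc38a7 and the amino acid response core in Slc1a4 and Slc7a7. Slc7a7 has 5 start-site windows, of which 3 hold no such core, and the window shown holds the most matches.
Slc38a7, chr8:95853442-95853741: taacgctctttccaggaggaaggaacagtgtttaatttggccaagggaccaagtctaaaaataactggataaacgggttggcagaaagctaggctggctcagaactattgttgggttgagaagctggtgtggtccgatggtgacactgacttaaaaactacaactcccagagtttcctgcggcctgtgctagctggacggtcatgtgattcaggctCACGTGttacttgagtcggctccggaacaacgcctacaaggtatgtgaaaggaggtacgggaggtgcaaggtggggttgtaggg
Slc1a4, chr11:20332664-20332963: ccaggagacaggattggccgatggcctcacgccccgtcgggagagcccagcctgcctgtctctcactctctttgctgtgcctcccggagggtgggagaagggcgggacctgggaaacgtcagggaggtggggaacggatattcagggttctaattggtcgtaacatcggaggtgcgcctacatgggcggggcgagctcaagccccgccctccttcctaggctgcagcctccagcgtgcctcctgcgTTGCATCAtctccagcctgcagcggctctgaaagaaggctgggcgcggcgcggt
Slc7a7, chr14:54417895-54418194: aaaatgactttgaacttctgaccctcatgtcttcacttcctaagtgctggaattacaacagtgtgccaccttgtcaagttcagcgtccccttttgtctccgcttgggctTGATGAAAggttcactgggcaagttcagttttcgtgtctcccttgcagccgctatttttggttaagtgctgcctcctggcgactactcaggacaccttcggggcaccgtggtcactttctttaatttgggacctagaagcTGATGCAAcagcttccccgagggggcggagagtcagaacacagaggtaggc

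A window was found for 31 of the 45 carriers (43 windows). The amino acid response core TGATGNAA, the element that the stress factor ATF4 is known to bind in amino acid carrier genes, was searched on both strands and matched 1304 of 32851 windows of all genes (3.97%) and 4 carrier windows (9.3%), which belonged to Slc1a4, Slc7a7 and Slc7a11. Slc7a7 gave 2 of these 4 windows, which overlap and hold the same TGATGCAA site, so that site is counted in both. The E-box CACGTG, which reads the same on both strands, matched 7.15% of all windows and 5 carrier windows (11.6%), those of Slc38a7, Slc36a1, Slc38a5, Slc43a1 and Slc7a14. The hypoxia response cores ACGTG and GCGTG, the first of which lies inside every E-box, matched 43.77% of all windows and 29 carrier windows (67.4%), which belonged to 25 carriers. A match is a description of letters, and no binding was measured.

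Growth on feeder cells was set against feeder-free growth to ask which carriers differ between the cultures. Of the 45 carriers 2 rose and 7 fell on feeder (limma, Benjamini-Hochberg over 10058 genes), a share of 20% beside 18.5% of all genes (10% higher, 8.46% lower). The sodium-coupled carriers Slc38a7, Slc6a15 and Slc6a2, the glutamate and glutamine carriers Slc1a1 and Slc1a5, the intracellular hexose carrier Slc2a8 and the light chain Slc7a7 fell, and the exchanger Slc1a4 and the glycine carrier Slc6a9 rose. None of the 9 changed by 2-fold or more, the largest being 0.67 on the log2 scale. The median carrier stood at -0.05 and the median of all genes at -0.02. At an unadjusted p below the same threshold 17 of 45 carriers differed, beside 32.9% of all genes. The arrays of both cultures did not overlap for 14 carriers (31.1%, beside 35.8% of all genes), 4 higher and 10 lower on feeder. All 9 calls were lost when each array was scaled to its median over all probes, most of which are undetected (302 genes higher and 90 lower were then called in all, in place of 1009 and 851), and 8 calls were made when scaling used probes detected on all 8 arrays.

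**Figure D1:**
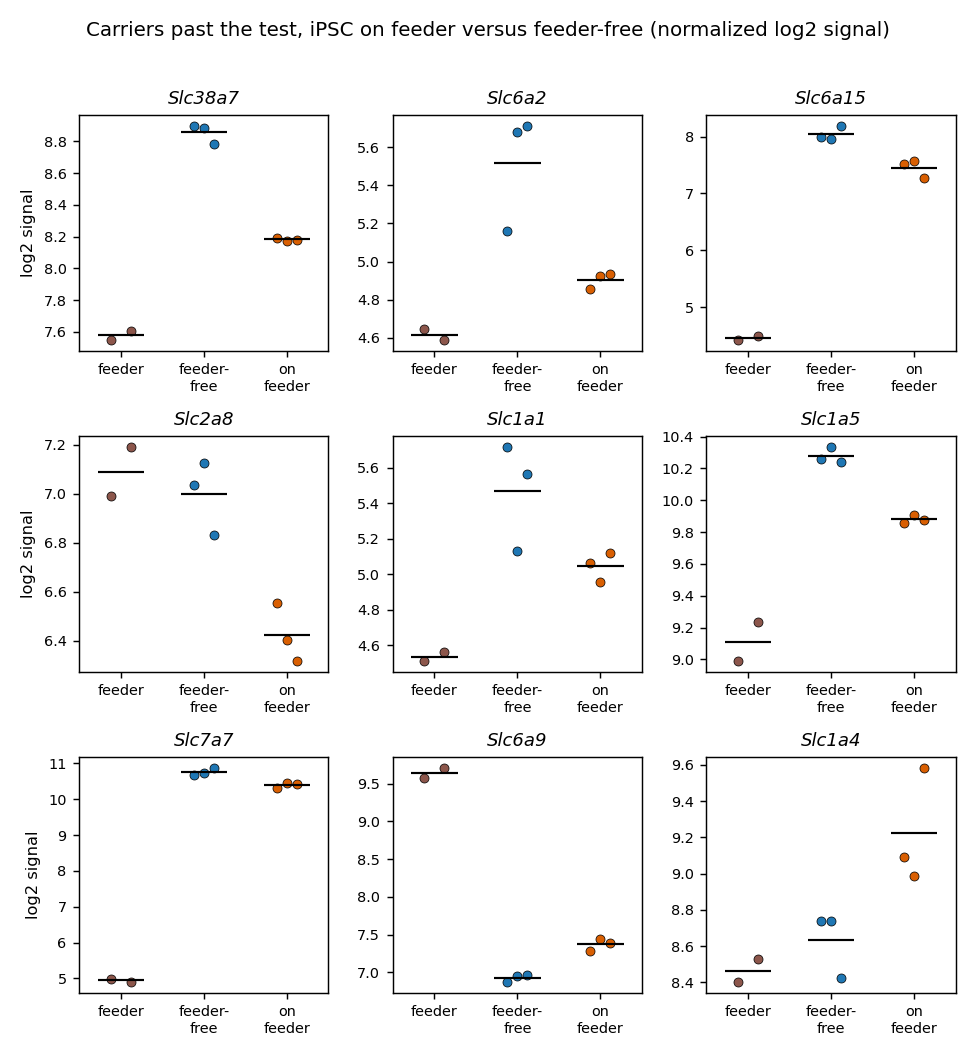
Normalized log2 signal (vertical axes) of the 9 carriers that passed the test between iPSC on feeder and feeder-free iPSC, 1 panel each, with 1 point per array and a bar at the group mean. The 3 on-feeder points lie below the 3 feeder-free points in 7 panels and above them for Slc1a4 and Slc6a9.

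Among the hexose carriers 4 of 11 were measured. Slc2a1, the basal glucose carrier of most cells, read 9.83 and 9.84 in feeder cells, 11.92, 11.83 and 11.73 in feeder-free iPSC, and 12.01, 12.06 and 12.25 on feeder. The 3 groups did not overlap and their order was feeder, feeder-free, on feeder. It was higher in feeder-free iPSC than in the fibroblasts by 2.00 (SE 0.11, adjusted p = 5.4e-09), whereas the difference on feeder of 0.28 (SE 0.10) missed the threshold at an adjusted p of 0.0795 and passed it without background correction (0.27, adjusted p = 0.0315).

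Slc2a3, a high-affinity glucose carrier typical of neurons and early embryos, read 4.73 and 7.63 in feeder cells, 13.16, 12.87 and 12.90 in feeder-free iPSC, and 12.99, 12.91 and 13.09 on feeder. The iPSC groups overlapped and both lay far above feeder cells, of which only the second array detected the probe. The difference from feeder cells was 6.80 in feeder-free iPSC (SE 0.55, adjusted p = 1.65e-07). It rests on which feeder array is used, at 5.28 without feeder replicate 1 and 8.25 without feeder replicate 2. On feeder it differed from feeder-free growth by 0.02 (SE 0.50, adjusted p = 0.982), and that SE pools the spread between the feeder arrays. The second feeder array also read higher than the first for the pluripotency gene Pou5f1, at 6.31 and 4.86. For Slc7a3, another carrier high in iPSC, the second read lower than the first, at 5.35 and 6.01. The cause of the spread between the feeder arrays was not tested.

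Slc2a8, a hexose carrier of intracellular membranes, read 6.99 and 7.19 in feeder cells, 7.04, 7.13 and 6.83 feeder-free, and 6.55, 6.41 and 6.32 on feeder. All 3 on-feeder arrays lay below the other 5. It fell on feeder by 0.57 (SE 0.11, adjusted p = 0.00431) while feeder cells and feeder-free iPSC were 0.09 apart (adjusted p = 0.509). The fall was seen by the brighter of its 2 kept probes only, as the other read -0.14 (adjusted p = 0.536). Slc2a6, a hexose carrier of lysosomes, was lower in feeder-free iPSC than in the fibroblasts by 0.96 and read 0.28 between the iPSC cultures (adjusted p = 0.179). Only 1 of 3 feeder-free arrays detected it, so both differences rest on feeder-free values that were mostly not detected. Slc2a2, Slc2a4, Slc2a5, Slc2a9, Slc2a10, Slc2a12 and Slc2a13 were not kept.

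Of 4 lactate and pyruvate carriers, only Slc16a3, known for lactate export from glycolytic cells, was kept. It read 5.48 and 5.91 in feeder cells, 5.59, 5.20 and 5.56 feeder-free, and 5.61, 5.48 and 5.30 on feeder. The 3 groups overlapped, with differences of 0.01 on feeder against feeder-free (SE 0.14, adjusted p = 0.957) and -0.25 in feeder-free iPSC against feeder cells (adjusted p = 0.167). Slc16a1, the widely expressed lactate carrier, was represented by 1 probe that no array detected, and Slc16a7 and Slc16a8 likewise were detected on none. A probe below background gives no level for a gene. Of the other Slc16a carriers 5 of 9 were measured, and none passed the test between the iPSC cultures: Slc16a6 was at least 1.94-fold and Slc16a13 at least 1.62-fold higher in feeder-free iPSC than in the fibroblasts, Slc16a9, a carnitine carrier, was lower by 0.43, and the aromatic amino acid carrier Slc16a10 was at least 1.11-fold higher on 1 probe and lower by 1.07 on the other.

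The Slc1a family holds glutamate carriers and neutral amino acid exchangers, and 4 of 7 were measured. Slc1a4, which exchanges alanine, serine and cysteine, read 8.40 and 8.53 in feeder cells, 8.74, 8.74 and 8.43 feeder-free, and 9.09, 8.99 and 9.58 on feeder. Every on-feeder array lay above every array of the other groups, the third the highest. It rose 1.5-fold on feeder (log2 0.59, SE 0.15, adjusted p = 0.0192), and feeder cells differed from feeder-free iPSC by 0.17 only (adjusted p = 0.36). The call ended on leaving out the third array of either culture (0.49 and adjusted p = 0.0797 without feeder-free replicate 3, 0.41 and adjusted p = 0.0581 when on-feeder replicate 3 was omitted).

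Slc1a5, the main glutamine exchanger of dividing cells, read 8.99 and 9.23 in feeder cells, 10.26, 10.34 and 10.24 feeder-free, and 9.86, 9.91 and 9.88 on feeder. The groups did not overlap, with on-feeder arrays between the other groups. It was 2.25-fold higher in feeder-free iPSC than in the fibroblasts (adjusted p = 6.33e-07) and fell on feeder by 0.40 (SE 0.10, adjusted p = 0.015). Its other 2 kept probes passed neither test, at 0.23 and 0.08 against the fibroblasts and -0.11 and -0.20 on feeder, and the call ended without feeder-free replicate 2 (adjusted p = 0.0601) or when on-feeder replicate 1 was omitted (adjusted p = 0.0523).

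Slc1a1, a glutamate, aspartate and cysteine carrier, was dim. It read 5.72, 5.13 and 5.56 in feeder-free iPSC and 5.06, 4.96 and 5.12 on feeder, where 2 of 3 arrays detected it, and no feeder array did. Its fall of 0.42 (SE 0.14, adjusted p = 0.0491) had the highest adjusted p of the 9 and did not pass under 12 of 16 alternatives, the omission of any array but feeder-free replicate 2 among them. Slc1a3, the glial glutamate carrier, read 9.13 and 9.25 in feeder cells, 7.91, 7.46 and 7.61 feeder-free, and 8.01, 7.90 and 8.08 on feeder. It was lower in feeder-free iPSC than in the fibroblasts by 1.53 on its brighter probe, but its other kept probe gave 0.98 in the opposite direction, so the direction depends on the probe.

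Of 10 light chains 5 were measured, and besides a fall of Slc7a7 neither they nor the heavy chain passed the test between the iPSC cultures. Slc3a2, the heavy chain that carries most Slc7a light chains to the surface, read 4.68 and 4.62 in feeder cells without detection, 5.36, 5.40 and 5.23 feeder-free, and 5.36, 5.69 and 5.91 on feeder. The iPSC groups overlapped and differed by 0.32 (SE 0.13, adjusted p = 0.111); without on-feeder replicate 1 the difference was 0.46 (adjusted p = 0.0291). The gene had a single probe, which was dim in every group. Against feeder cells Slc3a2 was at least 1.14-fold higher on feeder. Slc7a5, its partner for large neutral amino acids such as leucine, read 12.20 and 12.31 in feeder cells, 12.40, 12.29 and 12.27 feeder-free, and 12.36, 12.19 and 12.19 on feeder. All 3 groups overlapped, and neither the 0.06 between feeder-free iPSC and feeder cells (adjusted p = 0.6) nor the -0.07 on feeder (adjusted p = 0.661) passed the test.

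Slc7a7, the light chain that exports arginine and lysine in exchange for neutral amino acids, read 4.99 and 4.90 in feeder cells without detection, 10.67, 10.73 and 10.88 feeder-free, and 10.32, 10.47 and 10.42 on feeder. It was at least 39.2-fold higher in feeder-free iPSC than in the fibroblasts (fitted log2 difference 5.81, adjusted p = 9.14e-13) and at least 30.6-fold higher on feeder. Only 1 of its 3 probes was kept, and no array detected the others. The iPSC groups did not overlap, and the fall on feeder of 0.36 (SE 0.10, adjusted p = 0.0261) was lost on leaving out feeder-free replicate 2 or 3 or on-feeder replicate 1 or 3 (adjusted p from 0.0538 to 0.103).

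Slc7a11, the cystine and glutamate exchanger, read 6.66 and 6.90 in feeder cells, 5.52, 5.44 and 5.51 feeder-free, and 5.30, 5.47 and 5.44 on feeder. Feeder cells stood above both overlapping iPSC groups, and it was lower in feeder-free iPSC by 1.29 (SE 0.11, adjusted p = 3.56e-07), with -0.09 on feeder (adjusted p = 0.592). Only 1 of the 6 Slc7a11 probes was kept, and the others were detected on no array. Slc7a6, a relative of Slc7a7, was higher in feeder-free iPSC by 1.78, although its second kept probe gave -0.71. Slc7a8, a light chain for neutral amino acids, passed the test as higher feeder-free, but its feeder signal was below the floor and gives no fold.

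Of 5 cationic carriers of the Slc7a family 4 were measured and none passed the test between the iPSC cultures. Slc7a3, an arginine and lysine carrier, read 6.01 and 5.35 in feeder cells, where 1 of 2 arrays detected it, 11.25, 11.18 and 11.23 feeder-free, and 11.18, 11.02 and 11.21 on feeder. The iPSC groups overlapped and lay above both feeder arrays. It was higher in feeder-free iPSC by 5.54 (SE 0.16, adjusted p = 1.4e-11), with 1.54 on its dimmer kept probe, and differed by -0.08 on feeder (SE 0.14, adjusted p = 0.727). Slc7a1, the widely expressed cationic carrier, read 4.56 on both feeder arrays without detection, 5.30, 5.48 and 5.57 feeder-free, and 5.15, 5.07 and 5.41 on feeder. The iPSC groups overlapped, with a difference of -0.23 (adjusted p = 0.18), and against the fibroblasts its brighter probe passed as higher feeder-free, with no fold because feeder signal was below the floor, while the other read 0.03 (adjusted p = 0.845). Slc7a4 was at least 1.26-fold higher in feeder-free iPSC, and Slc7a14 passed no test.

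**Figure D2:**
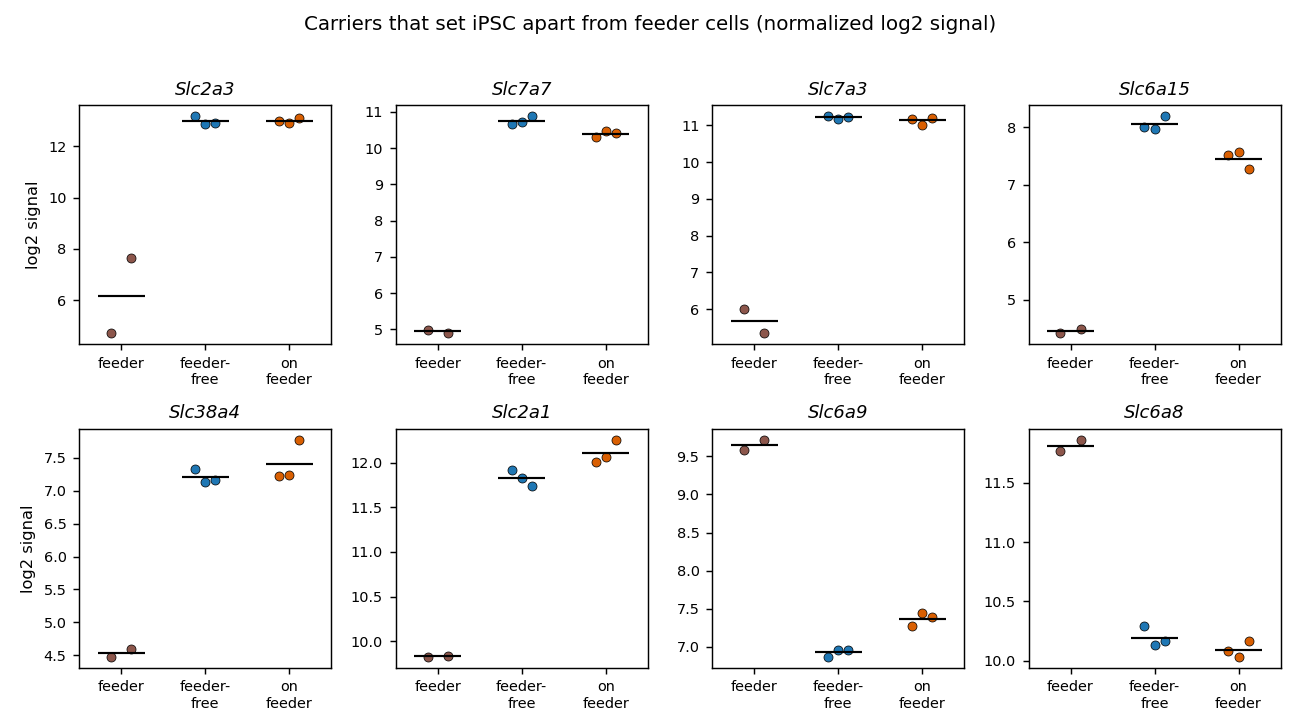
Normalized log2 signal (vertical axes) of 8 carriers by group, with 1 point per array and a bar at the group mean. Slc2a3, Slc7a7, Slc7a3, Slc6a15, Slc38a4 and Slc2a1 are higher on all 6 iPSC arrays than on either feeder array, and Slc6a9 and Slc6a8 are lower on all 6.

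System A and N carriers (Slc38a) concentrate glutamine and small neutral amino acids with sodium, and 9 of 10 were measured. Slc38a7 read 7.55 and 7.61 in feeder cells, 8.90, 8.88 and 8.79 feeder-free, and 8.19, 8.17 and 8.18 on feeder. The on-feeder arrays lay close together, between the other groups. It fell on feeder by 0.67 (SE 0.09, adjusted p = 0.000294), a 1.59-fold drop, and kept its call in 16 of 17 alternatives, the scaling to the median of all probes being the exception (adjusted p = 0.127). It was higher in feeder-free iPSC than in the fibroblasts by 1.28 (adjusted p = 1.19e-07).

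Slc38a1, a glutamine carrier, read 4.77 and 5.16 in feeder cells without detection, 7.00, 7.35 and 7.56 feeder-free, and 6.76, 7.14 and 6.39 on feeder. The iPSC groups overlapped, both above feeder cells. Its -0.53 on feeder (SE 0.19, adjusted p = 0.0721) passed the test under 4 of 17 alternatives, for example with the mean of its 4 kept probes (-0.46, adjusted p = 0.0185). Slc38a2, a carrier induced when cells lack amino acids, read 10.96 and 10.65 in feeder cells, 11.52, 11.72 and 11.88 feeder-free, and 11.42, 11.56 and 11.47 on feeder. It was higher in feeder-free iPSC than in the fibroblasts by 0.90 (adjusted p = 4.41e-05), and the iPSC groups overlapped (-0.22, adjusted p = 0.22).

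Slc38a4, a placental and hepatic carrier of neutral and cationic amino acids, read 4.47 and 4.60 in feeder cells without detection, 7.33, 7.13 and 7.16 feeder-free, and 7.22, 7.24 and 7.77 on feeder. It was at least 3.34-fold higher in feeder-free iPSC than in the fibroblasts and at least 3.84-fold higher on feeder, where the third array stood apart, and the iPSC groups overlapped. Slc38a5 was at least 1.92-fold higher in feeder-free iPSC, Slc38a9, a lysosomal carrier through which arginine is sensed, at least 1.23-fold, and Slc38a10 was lower by 0.69. Slc38a8 and Slc38a11 did not pass between feeder-free iPSC and feeder cells.

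Among the remaining small families, Slc43a1, a sodium-independent carrier of branched-chain amino acids, was at least 3.55-fold higher in feeder-free iPSC than in the fibroblasts and read -0.10 on feeder (adjusted p = 0.619). Slc43a3, a purine base carrier by function, was lower by 0.45. The 2 measured Slc36a carriers of 4 stood on the feeder side. Slc36a4 read 6.58 and 6.67 in feeder cells, 5.57, 5.37 and 5.61 feeder-free, and 5.43, 5.56 and 5.65 on feeder. It was lower in feeder-free iPSC by 1.11 (SE 0.12, adjusted p = 1.87e-06) (-0.49 and adjusted p = 0.0523 with all-probe median scaling) and Slc36a1 by 0.95, and neither passed the test between the iPSC cultures.

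The Slc6a family couples transport to sodium and chloride and had 8 of 17 members measured. Slc6a9, the glycine carrier, read 9.58 and 9.71 in feeder cells, 6.87, 6.96 and 6.96 feeder-free, and 7.28, 7.45 and 7.39 on feeder. The groups did not overlap, with on-feeder arrays nearer to the feeder-free ones. It was lower 6.58-fold in feeder-free iPSC than in the fibroblasts (log2 -2.72, SE 0.11, adjusted p = 1.69e-10) and rose on feeder by 0.44 (SE 0.10, adjusted p = 0.00772).

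Slc6a15, a carrier of branched-chain amino acids and proline, read 4.42 and 4.49 in feeder cells without detection, 7.99, 7.96 and 8.19 feeder-free, and 7.51, 7.57 and 7.26 on feeder. The groups did not overlap. It was at least 5.98-fold higher in feeder-free iPSC than in the fibroblasts and fell on feeder by 0.60 (SE 0.11, adjusted p = 0.0028), while its other kept probes read -0.39 and -0.09 without passing. Slc6a2, the noradrenaline carrier of neurons, was dim: it read 5.16, 5.68 and 5.71 in feeder-free iPSC, and 4.86, 4.92 and 4.93 on feeder, where 1 of 3 arrays detected it. It fell by 0.61 (SE 0.14, adjusted p = 0.009), and no feeder array detected it. Its other 2 kept probes read -0.41 and -0.11 without passing, and the call ended with median scaling over probes detected on all arrays (adjusted p = 0.0573).

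Slc6a8, the creatine carrier, read 11.76 and 11.86 in feeder cells, 10.29, 10.13 and 10.16 feeder-free, and 10.08, 10.03 and 10.16 on feeder. It was lower in feeder-free iPSC than in the fibroblasts by 1.62 (SE 0.11, adjusted p = 2.19e-08), and the iPSC groups overlapped (-0.10, adjusted p = 0.498). Slc6a6, the taurine carrier, read 11.08, 10.87 and 11.01 on feeder, below all feeder-free arrays (11.26, 11.14 and 11.36), but its -0.27 did not pass (adjusted p = 0.106). Of the carriers of GABA, Slc6a11 was lower in feeder-free iPSC than in the fibroblasts by 0.62 and Slc6a13 passed as higher with no fold, its feeder signal being below the floor, and Slc6a19, a carrier of neutral amino acids in gut and kidney, was lower by 0.73.

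Over all carriers, feeder-free iPSC differed from feeder cells in 37 of 45 (82.2%, beside 81.9% of all genes), 24 higher (40.8% of all genes were higher) and 13 lower (41.1%), with 16 and 5 by at least 2-fold (21.6% and 20.5% of all genes). The median carrier stood at 0.44 and the median of all genes at -0.01. These counts carry the detection filter, because 20 of the 45 carriers were detected on no feeder array and entered through iPSC alone, among them 17 of the 24 higher ones. The floor was higher on the feeder arrays, so a lack of detection there does not mean absence. On feeder, 35 carriers differed from feeder cells (77.8%, beside 80.8%), 23 higher (39.1% of all genes) and 12 lower (41.7%). Both comparisons share the feeder arrays. The arrays did not overlap for 38 carriers feeder-free (84.4%, beside 87.9%) and for 41 on feeder (91.1%, beside 86.9%). Scaling to the median of all probes moved the median of all genes in feeder-free iPSC against feeder cells to 0.28, and left 4 carriers called lower.

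**Figure D3:**
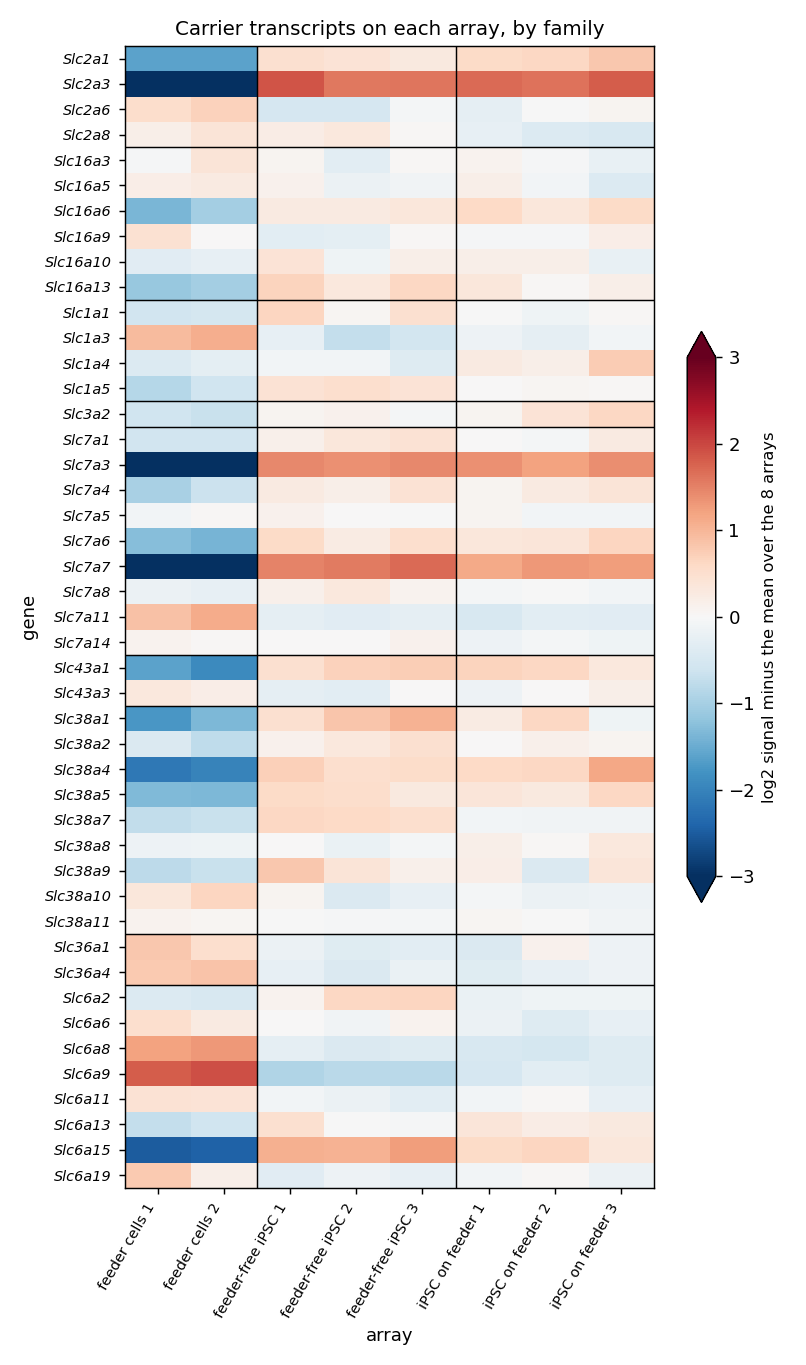
Log2 signal of the 45 measured carriers (rows, by family) on the 8 measured arrays (columns), each row centred on its own mean and coloured from -3 (blue) to 3 (red). Slc2a3, Slc7a3 and Slc7a7 lie beyond the colour scale in feeder cells, while Slc1a4 and Slc2a8 differ more between the iPSC cultures than between feeder-free iPSC and feeder cells.

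The mixture asked which differences exceed a reference with 8% feeder signal in feeder-free signal. On feeder, 6 of 45 carriers differed from it (13.3%, beside 11% of all genes, 5.68% higher and 5.32% lower), 1 higher and 5 lower, with 17 at an unadjusted p under the threshold, beside 28.9% of all genes. Slc38a7 was lower by 0.55 (SE 0.09, adjusted p = 0.00492), Slc6a2 by 0.63 (adjusted p = 0.0259), Slc2a8 by 0.51 (adjusted p = 0.0167) and Slc6a15 by 0.46 (adjusted p = 0.0264). Slc1a4 was higher by 0.60 (SE 0.15, adjusted p = 0.0319). Of these calls, that of Slc38a7 was lost under 1 of 17 alternatives, that of Slc2a8 under 5 of 17 (-0.10 on its other probe), Slc1a4 under 8 of 17, Slc6a15 under 9 of 17 and Slc6a2 under 9 of 16. Slc6a8 was lower by 0.32 (adjusted p = 0.0485), a call that 12 of 17 alternatives did not give, among them a mixture at the feeder share estimated from feeder-specific probes (-0.21, adjusted p = 0.162). The counts depended on single arrays, with 2 carriers called without feeder-free replicate 2 or 3, 3 on omitting on-feeder replicate 1 and 1 on omitting on-feeder replicate 3.

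Slc6a9 missed the threshold against the mixture (-0.01, adjusted p = 0.95). On the linear scale its on-feeder signal had moved 6.45% of the way from the feeder-free to the feeder signal. The 14 feeder-specific probes gave 3.69%, and the mixtures hold 8% feeder signal. The part of feeder RNA in the rise of Slc6a9 was not tested. By the same linear measure Slc7a7 had moved 22.5%, Slc6a15 37%, Slc1a5 43.7%, Slc1a1 54.6%, Slc38a7 63.5% and Slc6a2 75.2%. All of them were lower in the fibroblasts than feeder-free. No feeder array detected Slc7a7, Slc6a15, Slc1a1 or Slc6a2, so for these the measure mostly restates the fall on feeder. Slc1a5 (-0.31, adjusted p = 0.0521), Slc7a7 (-0.23, adjusted p = 0.155) and Slc1a1 (-0.41, adjusted p = 0.107) did not pass against the mixture. Other markers also moved between the iPSC cultures. Of the 4 primitive endoderm markers 3 fell on feeder (Gata4 by 1.27, Foxa2 by 0.66, Sox17 by 0.47), their summed signal being 2170 to 2460 feeder-free, 1470 to 1760 on feeder and 108 to 141 in feeder cells. Of 3 measured blood and endothelium markers of 4, Cdh5 fell by 1.16, with sums of 839 to 983, 735 to 876 and 175 to 188 in that order. Of 2 measured trophoblast markers of 3, Hand1 fell by 0.78, with sums of 92.6 to 102, 73.8 to 91.9 and 85.7 to 96, and of 7 pluripotency markers Utf1 fell by 0.51. The part of these markers in the carrier results was not tested.

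**Figure D4:**
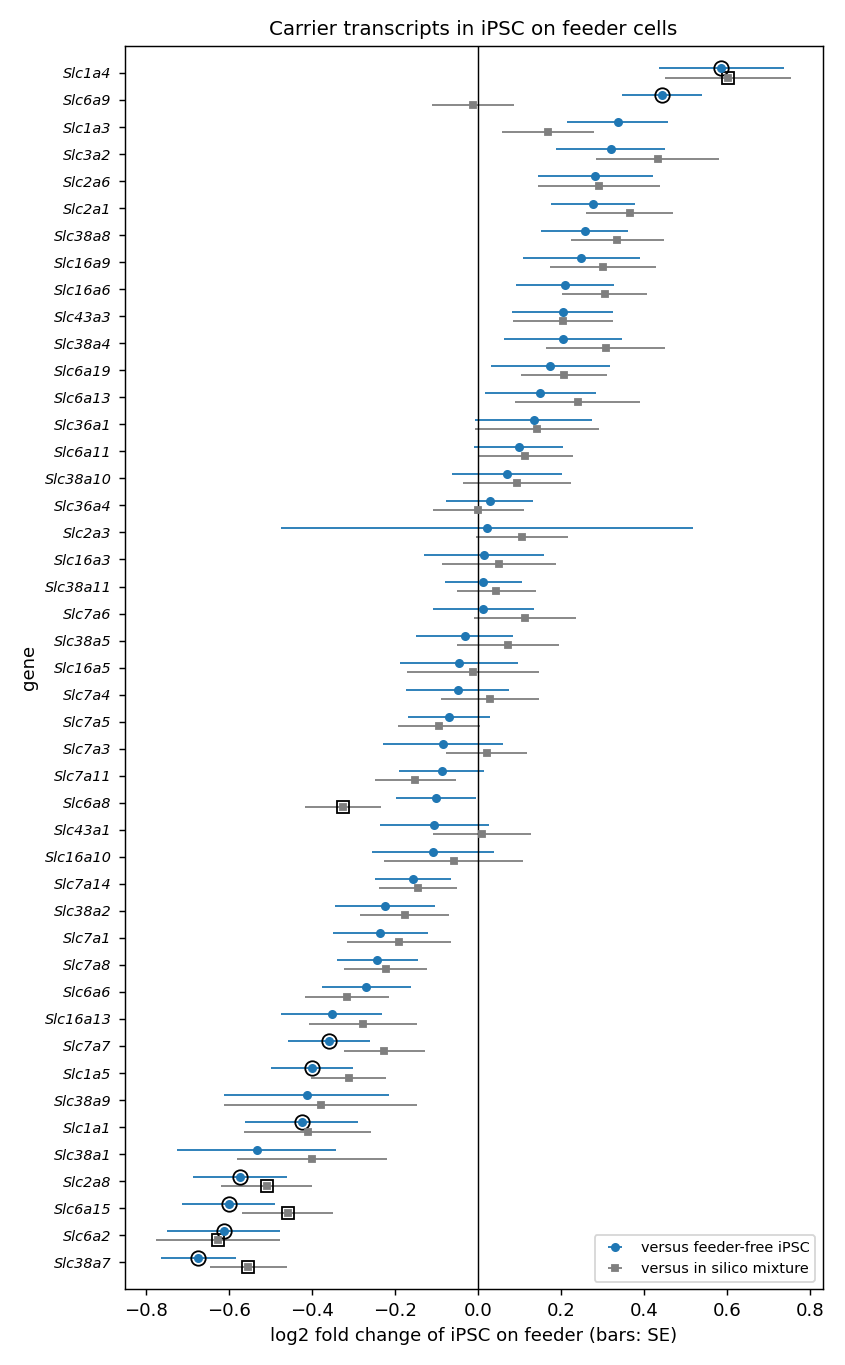
Log2 fold change with SE of each measured carrier in iPSC on feeder against feeder-free iPSC and against the in silico mixture (horizontal axis). Carriers are ordered by the change against feeder-free iPSC, with open rings around differences that passed the test. Against feeder-free iPSC 9 carriers passed and against the mixture 6, all within 0.67 log2 units of 0.

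Genes that handle the same substrates were counted from lists. Of 5 measured genes of 9 in the list of carrier partners and trafficking 2 rose on feeder and none fell. Txnip, which takes glucose carriers off the cell surface, read 9.46 and 9.48 in feeder cells, 10.69, 10.96 and 10.69 feeder-free, and 11.63, 11.48 and 11.37 on feeder. Its arrays did not overlap between any 2 groups, and it rose on feeder by 0.72 (SE 0.11, adjusted p = 0.000853), also against the mixture (0.77, adjusted p = 0.00245). The other riser was the ubiquitin ligase Nedd4l (0.40, adjusted p = 0.0203), named after its value was seen. Of 8 measured glucose and lactate enzymes of 10 none rose and 3 fell: Pdk1, Hk1 and Ldhb, also named afterwards, by 0.48, 0.36 and 0.35. Amino acid synthesis and use had 11 of 18 measured with 2 lower, Gldc by 0.42 and Bcat2 by 0.43, and amino acid sensing to mTORC1 had 14 of 17 measured with 1 lower, Rragd by 0.42, likewise named afterwards. None of these 3 lists had a riser, and 18.5% of all genes changed.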

How the data were processed

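Total RNA of 8 samples was labelled and hybridized to Illumina BeadChips. The other 3 of the 11 samples are mixtures computed in silico. The deposited table holds non-normalized bead intensity, 1 value per probe and array per the file headers, and the authors' detection column, headed as a p-value, was read as a score because it rose with signal (Spearman 0.9961 to 0.9987). Limma is named in the submitters' processing notes, with no version or role; scanner and background steps are not given in the sources used here. The deposited feeder-free columns were pooled, so each array was solved from its mixture column, 92% feeder-free plus 8% mean feeder signal, and the solved arrays rebuilt the pooled columns with a largest difference of 0.0471 signal units. A normalized series table was not used because 9 of its 11 columns did not match. Of 46632 entries 5 carried no probe ID (0.498% of the signal of feeder array 1) and were left out.

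Background was corrected by normexp from detection scores (offset 16) and arrays were quantile normalized in R 4.3.3 with limma 3.58.1. Probes with a score over 0.95 on every array of a group were kept, and the brightest stood for its gene. Symbols came from the platform annotation: 29972 probes with a single symbol, 10 with several, 16645 unlisted. One lmFit and eBayes fit over 8 measured arrays (5 residual and 7.03 prior degrees of freedom) gave all group comparisons, two-sided, with Benjamini-Hochberg adjustment over 10058 genes at 0.05; the mixture comparison was fitted apart (4 residual). The fit was tested on simulated data for on feeder against feeder-free. It recovered 94% of changes of 1 log2 unit but 48% of those of 0.5, so small changes can be missed. Changes were planted in only 200 of the 10058 genes, while 18.5% of all genes were called in the data. These rates therefore need not hold for the data. A fold against a group detected on no array is a lower bound against the floor of detected signal. Depth is signal over background: 13581 to 14574 probes were detected on feeder arrays, 17307 to 18759 feeder-free and 17630 to 19043 on feeder, and the number of arrays limits precision. Same-numbered iPSC arrays deviated from group means with correlations of 0.0252, 0.164 and -0.198, so numbers were not taken as pairs. Named were carriers past the test on feeder against feeder-free or the mixture, a set of well-known carriers, the 5 largest differences each way from feeder cells, and list genes past the test at 0.5 log2 or more. Carriers and lists were chosen with earlier results of these data known. Promoters came from RefSeq tables (GRCm38.p6). Python 3.11.15, pandas 2.3.3, numpy 2.4.6 and matplotlib 3.10.9 were used. Alternatives were scaling, background, detection filter, probe choice, replicate block, feeder share and omission of each array; scaling to the median of all probes and the fit of all kept probes were added after seeing the data.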

Additional observations from a re-analysis of the deposited data

How the results depend on the processing

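The number of carriers called on feeder against feeder-free (9) was 8 with median scaling over probes detected on all arrays, 8 from the 6 iPSC arrays alone and 9 with the replicate block, 0 with scaling to the median of all probes (0 higher, 0 lower) and 4 with the dimmest probe per gene (2 lower); without the detection filter 1 was higher. Leaving out single arrays gave 6 to 10 (1 to 3 higher, 4 to 7 lower). Feeder-free against feeder cells (37) gave 34 to 38 without single arrays (23 to 24 higher, 11 to 14 lower), 4 lower with all-probe median scaling and 22 lower of 82 without the filter. On feeder against feeder cells (35) gave 34 to 36 (22 to 24 higher, 12 to 13 lower), with 5 and 20 lower under the same settings. Against the mixture (6, 1 higher and 5 lower) single arrays gave 1 to 8 (0 to 3 higher, 1 to 6 lower). Median scaling gave 3 (0 higher, 3 lower), all-probe median scaling 0 (0 and 0), the dimmest probe 2 (1 lower), the mean of probes 2 higher and 2 lower, no background correction 2 higher, no filter 0 higher and a score over 0.99 2 higher. The replicate block gave 3 (0 higher, 3 lower) and ended the mixture calls of Slc1a4, Slc6a15 and Slc6a8; it changed no other call of a named carrier, and the numbers do not pair the samples. Under all-probe median scaling the median of all genes moved to 0.276 and 0.266 against feeder cells. Some signs turned, between iPSC cultures only for differences that passed no test: leaving out single arrays, Slc16a3 ran from -0.107 (with another at -0.0586) to 0.0933, Slc36a4 from -0.0452 (another at -0.0214) to 0.082 and Slc2a3 from -0.0328 (others at -0.0174 and -0.0243) to 0.115, and Slc2a3 read -0.0293 with median scaling. With the dimmest probe, Slc1a3 turned to 0.978 (feeder-free) and 1.06 (on feeder) against feeder cells, Slc2a8 to 0.386 and Slc7a1 to -0.057, both on feeder against feeder cells, where Slc2a8 was also 0.019 with all-probe median scaling. The causes were not tested beyond the probe or array each setting leaves out. The number of arrays limits what can be seen: the SE of a carrier ran from 0.0901 to 0.495.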
